A study of Mus musculus with 7 samples.

Results

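The transcripts described here are 33 genes that mark endothelial cells, the cells that line blood vessels, lymphatic vessels and the chambers of the heart. They were looked up by symbol in the count table of sorted cardiac fibroblasts, and 33 of 33 were found among its 54735 gene symbols. All 33 had enough counts to be tested among 17636 genes. The 7 libraries came from mouse hearts of pooled males and females, in 3 groups. Postn P7 (2 libraries, 7 days old, PostnMCM;R26eGFP) held cells traced by a tamoxifen-inducible MerCreMer recombinase under periostin. Tcf21 P7 (2 libraries, 7 days old) and Tcf21 P30 (3 libraries, 30 days old) both came from Tcf21MCM;R26eGFP animals, in which the recombinase follows the transcription factor gene Tcf21. All groups carried the R26eGFP reporter, and all cells had been sorted as GFP-positive, so each sample is a sort on a trace of past driver expression and not on a surface protein. How many animals a library pooled, and whether the libraries of a group came from separate sorts, is not stated in the labels. The p-values below measure only the spread between these libraries.

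Endothelial cells build the inner wall of vessels from junction proteins such as VE-cadherin and claudin-5, and they respond to growth factors from surrounding cells. Vascular endothelial growth factors act on the tyrosine kinase receptors encoded by Kdr, Flt1 and Flt4, and angiopoietins act on the receptor encoded by Tek. In heart muscle most endothelial cells are capillary cells, which carry fatty acids from the blood to cardiomyocytes with the help of Cd36, Fabp4 and Gpihbp1. Fibroblasts lie against these capillaries and secrete several of the ligands. In bulk RNA from sorted cells, more cells of a type and more RNA per cell cannot be told apart.

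Fibroblast transcripts were abundant in every library. Tcf21 itself was at 271 to 428 CPM. Postn was at 2995 and 3695 CPM in Postn P7, at 4258 and 4549 CPM in Tcf21 P7 and at 756 to 907 CPM in Tcf21 P30. The day 7 lineages did not overlap, with the lower values in Postn P7, but Postn was not called between them (-0.40 ± 0.15, adjusted p = 0.114, edgeR). The 10 fibroblast markers summed to between 27930.0 and 51543 CPM (counts scaled to library size and then by edgeR's trimmed mean of M values) in each library. The 33 endothelial genes summed to 3595 and 2052 CPM in Postn P7, to 2427 and 2150.5 CPM in Tcf21 P7, and to 8100.5, 1992 and 2414 CPM in Tcf21 P30. One library of each of 2 groups thus stood above the rest, replicate 1 of Postn P7 and replicate 1 of Tcf21 P30, and the latter was the highest of all. They are called the endothelial-rich libraries here. Total counts ran from 15207835 to 18519528 per library, so depth differed little.

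Sequences of 250 bases upstream of the start are shown for 4 of the genes, because they fall on both sides of the main division described below: the levels of Kdr and Tie1 moved with the endothelial-rich libraries, and those of Tek and Esm1 did not. They are taken from RefSeq for GRCm38.p6, which held windows for 16 of the 33 genes, and are written 5′ to 3′ on the strand of the gene. Capitals mark the hexamer AGGAAG, the hexamer CAGGAA or the hexamer CCGGAA on either strand, 3 forms of the core that ETS transcription factors such as Erg recognise. The former pair can overlap by all but 1 base.
Kdr, chr5:75978456-75978705, minus strand: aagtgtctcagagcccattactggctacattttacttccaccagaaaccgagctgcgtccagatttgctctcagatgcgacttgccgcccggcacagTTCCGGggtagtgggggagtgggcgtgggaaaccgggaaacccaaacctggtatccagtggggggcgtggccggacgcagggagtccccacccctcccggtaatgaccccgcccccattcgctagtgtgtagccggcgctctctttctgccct
Tie1, chr4:118489850-118490099, minus strand: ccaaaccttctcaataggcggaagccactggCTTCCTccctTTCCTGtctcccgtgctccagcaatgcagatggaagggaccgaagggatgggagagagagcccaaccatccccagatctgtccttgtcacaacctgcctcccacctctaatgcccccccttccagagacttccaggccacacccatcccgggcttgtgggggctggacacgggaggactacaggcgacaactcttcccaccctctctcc
Tek, chr4:94739039-94739288, plus strand: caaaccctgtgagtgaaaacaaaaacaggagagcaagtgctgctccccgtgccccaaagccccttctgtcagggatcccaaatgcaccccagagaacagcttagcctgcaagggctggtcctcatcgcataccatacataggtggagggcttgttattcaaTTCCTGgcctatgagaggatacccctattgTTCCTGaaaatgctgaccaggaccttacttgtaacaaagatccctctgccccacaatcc
Esm1, chr13:113209409-113209658, plus strand: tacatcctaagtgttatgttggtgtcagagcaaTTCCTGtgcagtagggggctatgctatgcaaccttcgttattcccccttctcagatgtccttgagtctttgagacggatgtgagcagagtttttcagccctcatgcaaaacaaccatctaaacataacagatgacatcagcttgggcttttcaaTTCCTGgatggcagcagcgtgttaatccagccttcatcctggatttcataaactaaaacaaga
The Kdr window held 1 match, and each of the other 3 held 2. Of the 21 member windows (some genes have several starts), 13 held at least 1 of the motifs, or 61.9%, against 48.8% of 32851 windows of the same length. Separately, AGGAAG was in 42.9% of the member windows and in 29.5% of all windows, CAGGAA in 47.6% and 25.7%, and CCGGAA in 4.76% and 12%. A match describes the letters alone.

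The plot of all 33 genes by library shows the pattern on which the rest turns. Each gene was divided, in each library, by the mean of the other libraries of its group. In Tcf21 P30 replicate 1 this ratio was above 1 for 32 of 33 genes, with a median of 5.68 and a range from 0.888 (Esm1) to 8.02 (Erg). In Postn P7 replicate 1 it was above 1 for 32 of 33 genes as well, with a median of 2.04 and a range from 0.864 (Tek) to 3.47 (Vwf). Over all genes tested the median ratio of those libraries was 0.999 and 0.987, and 90% of all genes lay below 1.83 and 1.60. The Tcf21 P7 libraries lay close together, with a median of 1.15 for replicate 1 over replicate 2. The ratios describe single libraries and carry no test.

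**Figure D1:**
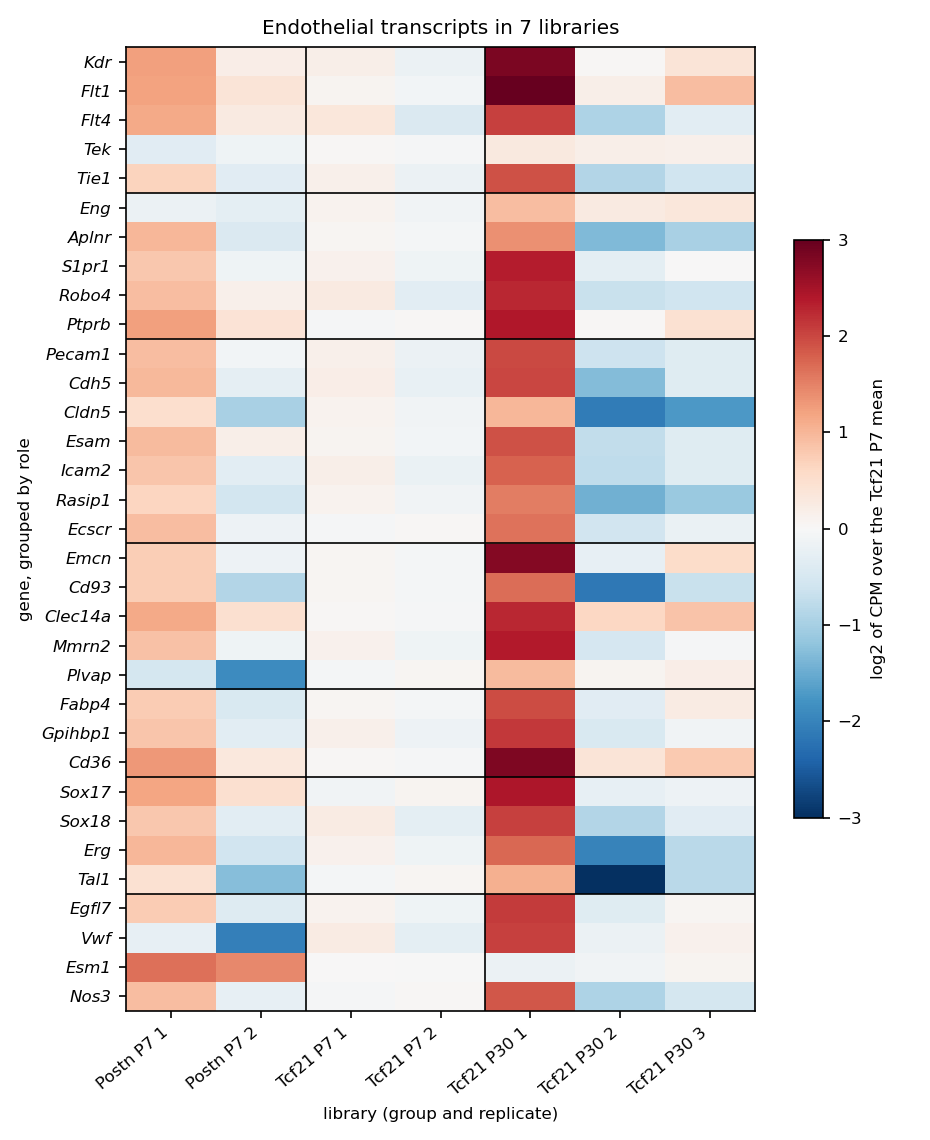
Level of each of the 33 endothelial genes (rows, grouped by role and separated by lines) in the 7 libraries (columns), as the log2 of its CPM over the Tcf21 P7 mean, with red above and blue below. Replicate 1 of Tcf21 P30 is red for nearly all genes and replicate 1 of Postn P7 for most, whereas Tek and Esm1 do not share that pattern.

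Among the receptors for vascular growth factors and angiopoietins, 4 of 5 followed the endothelial-rich libraries and Tek did not. Kdr, the main signalling receptor for VEGF-A, stood at 296 and 145 CPM in Postn P7, at 141 and 110.0 CPM in Tcf21 P7, and at 887, 128 and 165 CPM in Tcf21 P30. The Postn P7 libraries lay above those of Tcf21 P7, and the 2 lower P30 libraries lay within the range of the P7 libraries. Tie1, an orphan receptor that partners with the angiopoietin receptor, stood at 139 and 69.2, at 98.2 and 77.2, and at 327, 47.4 and 57.9 CPM in the same order. The groups overlapped. Flt1, a receptor that also acts as a VEGF decoy, ranged from 20.7 to 216 CPM, and Flt4, the receptor for VEGF-C and VEGF-D, from 5.52 to 43.4 CPM. Tek (chromosome 4, 94739289 to 94874976) stood at 351 and 407 CPM in Postn P7, at 450.5 and 432 CPM in Tcf21 P7, and at 540, 496 and 486 CPM in Tcf21 P30. The 3 groups did not overlap, and Tek was at its lowest in the Postn P7 library where most other members were high. With so few libraries non-overlap was common among the 17636 genes tested. Between the P7 groups 5545 genes lay wholly higher in Postn P7 and 5739 wholly lower, among them 8 and 3 members. At P30 against P7 it was 5614 and 5278 genes, with 6 and 0 members. In Postn P7 against Tcf21 P30 it was 4358 and 4567, with 1 and 4 members. Per kilobase of exon, Tek had the highest mean level of the 33 genes (95.9 CPM per kb), ahead of Cd36 (93), Eng (75.1) and Fabp4 (67.9), whereas Pecam1 stood at 22.2. The order depended on the library: Cd36 was above Tek in both endothelial-rich libraries (290 and 115 CPM per kb in Tcf21 P30 replicate 1) and below it in the other 5.

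The other receptors divided in the same way. Eng, endoglin, a co-receptor for BMP and TGF-beta ligands (chromosome 2, 32646595 to 32682669), stood at 235 and 216 CPM in Postn P7, at 283 and 245 CPM in Tcf21 P7, and at 499, 319 and 332 CPM in Tcf21 P30. Its 3 groups did not overlap, and replicate 1 of Tcf21 P30 was high by a factor of 1.54 only. Aplnr, the apelin receptor, stood at 245 and 90.8 CPM, at 128 and 117 CPM, and at 315, 48.7 and 62.2 CPM. Apart from the high library, the P30 values were the lowest of the 7. Ptprb, a phosphatase that acts on Tek and VE-cadherin, stood at 180 and 101, at 74.4 and 78.7, and at 403, 78.3 and 105 CPM. S1pr1, a receptor for a lysophospholipid, ranged from 39.7 to 246 CPM and Robo4, a guidance receptor of vessels, from 13.1 to 101 CPM, both with the highest value in Tcf21 P30 replicate 1.

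All 7 junction and adhesion genes were highest in Tcf21 P30 replicate 1. Pecam1 (CD31; chromosome 11, 106654217 to 106750628) stood at 180 and 89.2 CPM in Postn P7, at 106 and 83.4 CPM in Tcf21 P7, and at 372, 61.6 and 73.8 CPM in Tcf21 P30. Esam, an adhesion molecule of endothelial tight junctions, stood at 137 and 79.1, at 74.1 and 66.8, and at 263, 42.5 and 54.7 CPM. In both genes the remaining P30 libraries were the lowest of the 7. Cldn5, the claudin of endothelial tight junctions, stood at 59 and 21.1 CPM, at 44.6 and 38.8 CPM, and at 82.6, 9.77 and 12.6 CPM. The lower P30 libraries were the lowest of the 7 for this gene. Rasip1, a Rap1 effector needed for vessel lumens, stood at 75.4 and 32.7, at 51.5 and 44.1, and at 138, 17.7 and 22.1 CPM. Cdh5 (VE-cadherin) ranged from 17.9 to 177 CPM, Icam2 from 16 to 93.1 CPM and Ecscr, a surface protein of endothelial migration, from 12.2 to 56.5 CPM.

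Among the glycoproteins, Plvap and Clec14a departed from the common ratio. Plvap, which forms the diaphragms of fenestrae and caveolae, stood at 17.1 and 6.73 CPM in Postn P7, at 23.9 and 25.7 CPM in Tcf21 P7, and at 47.8, 26.1 and 28.2 CPM in Tcf21 P30. The 3 groups did not overlap. Clec14a, a C-type lectin that binds the matrix protein encoded by Mmrn2, stood at 52.2 and 33.6 CPM, at 24.7 and 23.2 CPM, and at 115, 36.7 and 43.4 CPM. Both Tcf21 P7 libraries were below all others. Emcn ranged from 17.2 to 138 CPM, Cd93, another lectin that binds the Mmrn2 protein, from 14.8 to 206 CPM, and Mmrn2 itself from 18.5 to 136 CPM.

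The genes of lipid handling were among the most abundant members. Cd36, a fatty acid transporter, stood at 366 and 185 CPM in Postn P7, at 153 and 144 CPM in Tcf21 P7, and at 1041, 194 and 256 CPM in Tcf21 P30. Fabp4, a fatty acid carrier, stood at 349.8 and 151 CPM, at 215 and 200.4 CPM, and at 806, 163 and 248 CPM. Both were highest in the endothelial-rich libraries. Gpihbp1, which anchors lipoprotein lipase to capillaries, ranged from 34.5 to 207 CPM. Adipocytes also express Cd36 and Fabp4. In every library 6 adipocyte markers (Adipoq, Plin1, Cidec, Lep, Pck1 and Retn) summed to between 0 and 0.55 CPM. The cells from which Cd36 and Fabp4 transcripts came were not tested.

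Among the transcription factor genes Sox18 was abundant, with the 7th highest mean per kilobase (31.3 CPM per kb), whereas Sox17 (4.10), Erg (2.22) and Tal1 (0.331) were low on that scale. Erg, an ETS factor that maintains endothelial identity, stood at 12.2 and 4.16 CPM in Postn P7, at 6.71 and 5.60 CPM in Tcf21 P7, and at 20.2, 1.52 and 3.52 CPM in Tcf21 P30. Sox17, a factor of arterial endothelium, ranged from 8.94 to 57.7 CPM and its relative Sox18 from 19.3 to 147 CPM. Tal1, a factor of blood and endothelial development, was the least abundant member, with 3 to 51 counts per library. Each of the 4 was highest in Tcf21 P30 replicate 1.

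Of the secreted proteins and the enzyme, Esm1 stood apart. Esm1 encodes endocan, a proteoglycan of activated endothelium and of tip cells (chromosome 13, 113209659 to 113218098). Its level was 13.8 and 12 CPM in Postn P7, at 4.43 and 4.33 CPM in Tcf21 P7, and at 3.85, 4.06 and 4.62 CPM in Tcf21 P30. Both Postn P7 libraries were above the other 5, and Tcf21 P30 replicate 1 was the lowest library of all. Vwf, the clotting protein stored in endothelial granules, stood at 28.5 and 8.20 CPM in Postn P7, at 39.9 and 27.8 CPM in Tcf21 P7, and at 139, 30.1 and 37.3 CPM in Tcf21 P30. In Tcf21 P7 and in the lower P30 libraries Vwf lay in one range, and replicate 2 of Postn P7 was the lowest. Egfl7 ranged from 22.7 to 128 CPM and Nos3, the endothelial nitric oxide synthase, from 21.2 to 146 CPM. Some genes share exon sequence with neighbours, which counting by symbol may have split. Of the Nos3 exon bases, 25.2% overlap Gm15587 on the opposite strand, and of the Rasip1 exon bases, 20.4% overlap Izumo1 on the same strand.

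**Figure D2:**
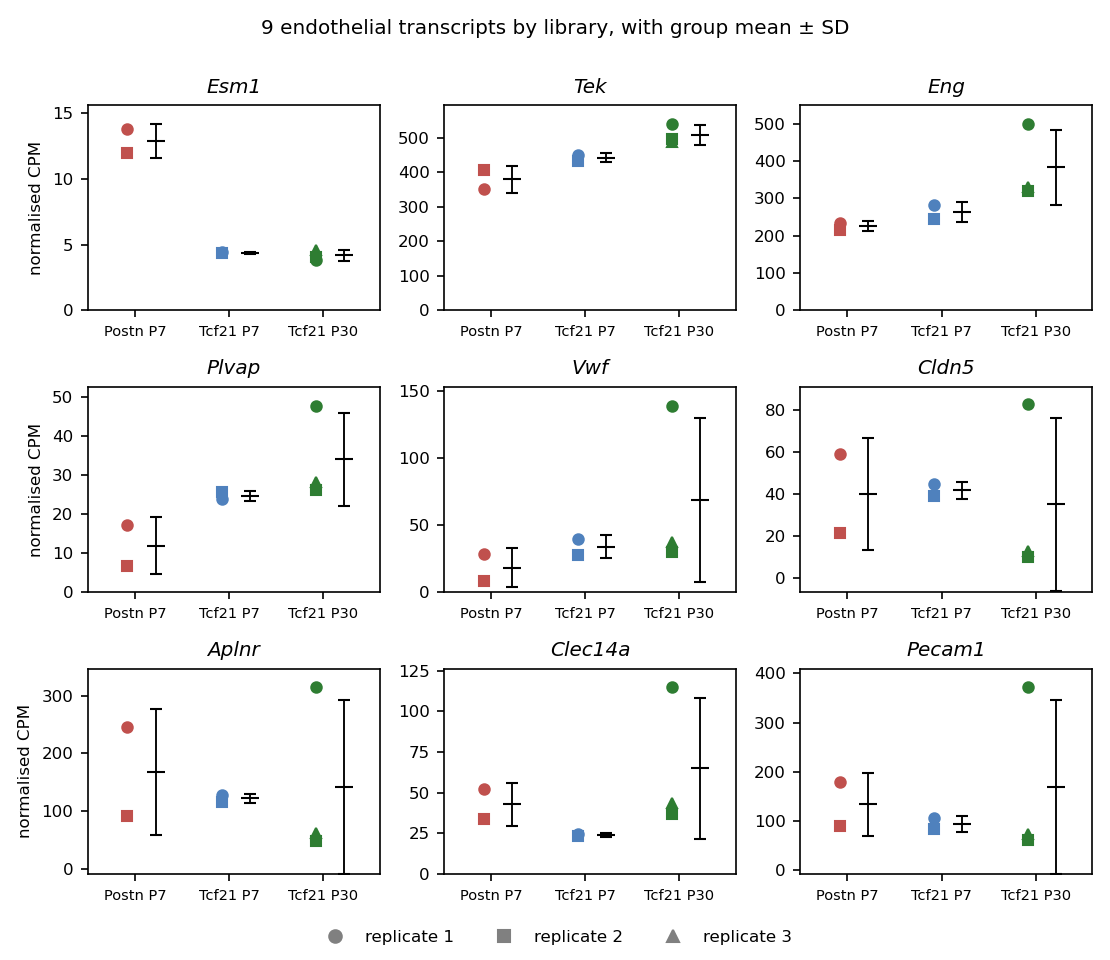
Normalised CPM of 9 endothelial genes in each library (points, shaped by replicate and coloured by group), with the group mean and SD beside them (bars, n of 2, 2 and 3). Esm1 is high in both Postn P7 libraries, Tek varies little within groups, Eng has 1 higher library at P30, and the other genes are spread by the circle of Tcf21 P30 replicate 1.

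The first comparison, of Postn P7 with Tcf21 P7, asks how the periostin-traced cells differ from the wider fibroblast lineage at the same age. Esm1 was the only member called. It averaged 12.9 ± 1.29 CPM (SD, n = 2) in Postn P7 and 4.38 ± 0.0744 CPM (SD, n = 2) in Tcf21 P7, a log2 difference of 1.56 ± 0.21 (SE; edgeR's quasi-likelihood test, adjusted p = 0.0065). In all 1 of 33 members was higher and none lower, where 6.52% of all genes tested were called higher and 5.49% lower. Before adjustment 1 member had a p under 0.05, where 5362 of 17636 genes did. The median log2 difference of the members was 0.42, against 0.00 over all genes, with 27 positive and 6 negative values. That median was -0.25 without Postn P7 replicate 1. Members were estimated with a median SE of 1.03. Without Tcf21 P7 replicate 1 Esm1 kept its size (1.58) and missed the threshold (adjusted p = 0.072), as it did without replicate 2 (1.55, adjusted p = 0.073). With 1 library left in that group, the genes called higher fell from 1149 to 85 and 80.

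The second comparison, of Tcf21 P30 with Tcf21 P7, follows the lineage from 7 to 30 days. None of the 33 members was called by edgeR's test, where 16.7% of all genes tested were higher and 15% lower. Before adjustment 1 member had a p under 0.05, where 7652 of 17636 genes did. DESeq2 called 1 member higher (Eng, 0.53, adjusted p = 0.018), where it called 16.4% of all genes higher. The median log2 difference was 0.83, with 30 positive and 3 negative values, against a median of 0.03 over all genes. In edgeR's test Eng also passed without Tcf21 P30 replicate 1 (0.31, adjusted p = 0.0414) or replicate 2 (0.65, adjusted p = 0.0424). Without replicate 1, Clec14a (0.75, adjusted p = 0.0242) passed as higher too and Cldn5 (-1.89, adjusted p = 0.0375) as lower. In that fit 17.9% of all genes were called higher and 16.9% lower. The median rested on 1 library. Without Tcf21 P30 replicate 1 the median was -0.27, 24 values were negative and 9 positive. Kdr averaged 393 ± 428 CPM (SD, n = 3) at P30 and 125 ± 21.6 CPM (SD, n = 2) at P7 and differed by 1.65 ± 1.00 (adjusted p = 0.27) and Pecam1 by 0.83 ± 0.92 (adjusted p = 0.53). The SD of Kdr in Tcf21 P30 exceeded its mean.

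The comparison of Postn P7 with Tcf21 P30 differs in lineage and in age together, and shares its libraries with the 2 others. Esm1 was higher in Postn P7 (1.62 ± 0.18, adjusted p = 0.00051), and Tek (-0.42 ± 0.10, adjusted p = 0.019) and Eng (-0.77 ± 0.20, adjusted p = 0.03) were lower, from edgeR's test. That is 1 member higher and 2 lower of 33, where 11.7% and 12.5% of all genes were called. Tek averaged 379 ± 39.3 CPM (SD, n = 2) in Postn P7 and 507 ± 28.4 CPM (SD, n = 3) in Tcf21 P30, and Eng was 226 ± 13.6 against 383 ± 101 CPM. Tek missed the threshold without Postn P7 replicate 1 (-0.32, adjusted p = 0.12) and without either Tcf21 P7 library (-0.41 in both, adjusted p = 0.059 in both). Eng missed it when Postn P7 was left with a single library (-0.83 and -0.71, adjusted p = 0.11 and 0.16) and with library size as the only scaling (-0.66, adjusted p = 0.068), with a fold of like size. Plvap missed the threshold here (-1.51 ± 0.46, adjusted p = 0.064) and passed it in DESeq2 (adjusted p = 0.000312), without robust estimation (adjusted p = 0.0369) and without Postn P7 replicate 1 (-2.34, adjusted p = 0.0146). The median of the members was -0.43, and it was 0.95 without Tcf21 P30 replicate 1.

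Relative to Pecam1 most of the members varied less between libraries than in CPM, though not all of them little. The highest and the lowest library differed in CPM by a median factor of 7.01 over the 32 genes other than Pecam1. Expressed per 100 Pecam1 counts of the same library, the median factor was 1.83, and it was narrower for 29 of the 32 genes. It was wider for Tek, Eng and Esm1. Vwf (5.49), Plvap (5.63), Cd93 (3.11) and Cldn5 (2.93) still varied by large factors on this scale. Tie1 ran from 76.9 to 92.5 per 100 Pecam1 counts and Icam2 from 24.7 to 29.2. S1pr1 ran from 47 to 52.6 in the 4 libraries of day 7 and from 64.5 to 66.2 in the 3 of day 30. Kdr stood at 165 and 162 in Postn P7, at 132 in both libraries of Tcf21 P7 and at 238, 208 and 224 in Tcf21 P30, so that its 3 groups did not overlap on this scale. Cldn5 went the other way, at 32.8 and 23.6, at 42 and 46.5, and at 22.2, 15.9 and 17.1 per 100 Pecam1 counts. These ratios share Pecam1 as their denominator and are given without a test.

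**Figure D3:**
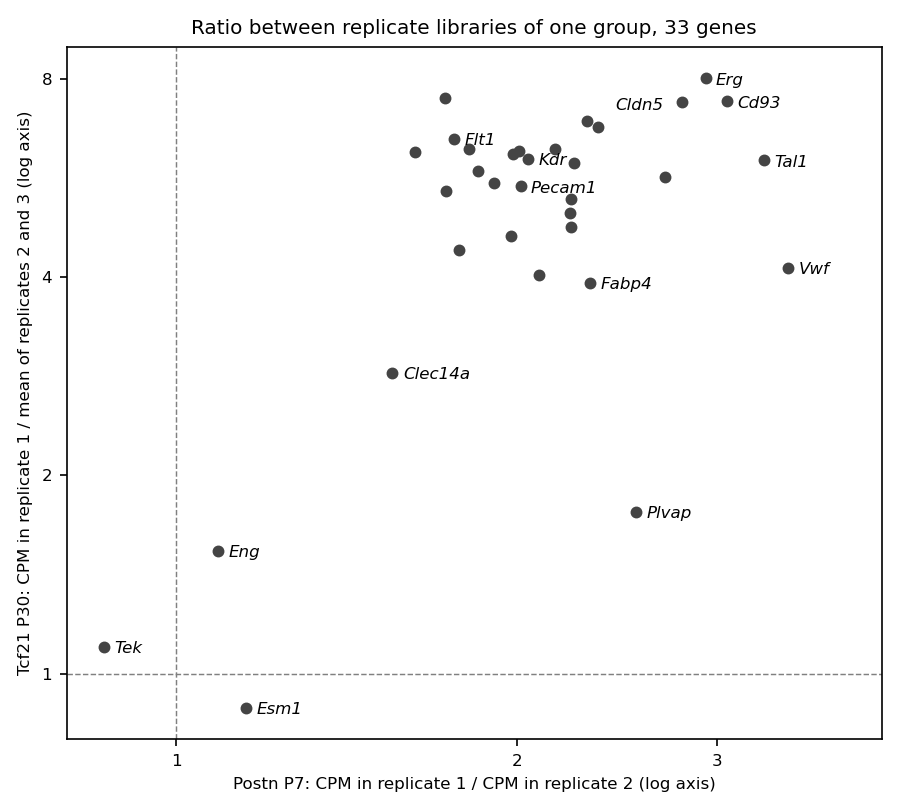
Each point is 1 of the 33 genes, placed by its CPM in replicate 1 over replicate 2 of Postn P7 (horizontal, log axis) and by replicate 1 over the mean of replicates 2 and 3 of Tcf21 P30 (vertical, log axis). Most genes lie well above 1 on both axes, while Tek, Eng and Esm1 lie near the dashed lines of no difference.

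The members were also fitted in 2 further ways. In one, both endothelial-rich libraries were left out, which leaves a single Postn P7 library whose spread is then borrowed from the other groups. Those libraries were left out because the members were high in them, so the values of that fit describe the other 5 libraries. No p and no call is given from it. It did not match the groups in endothelial content, since the 7 junction genes summed to 178 and 235 CPM in the remaining P30 libraries and to 376 and 313 CPM in Tcf21 P7. In the other fit, added after the data were seen, all 7 libraries were kept and the log2 summed CPM of Pecam1 and Cdh5 was a covariate, so those 2 genes are not counted in it. The covariate was made of 2 members after the members had been seen to move together. Positive slopes of the other members were thus built in, and they describe that shared movement without testing it. In that fit 28 of the 31 other members rose with the covariate, where 5.28% of all genes did. The median slope of the 31 members was 0.96 log2 units per unit. Tek (0.02 ± 0.04), Esm1 (-0.02 ± 0.10) and Plvap (0.39 ± 0.11, adjusted p = 0.07) did not pass, and Eng had a slope of 0.23 ± 0.03. Without Tcf21 P30 replicate 1, 21 of 31 members rose with a covariate of the same 2 genes, where 1.19% of all genes did. The same limit holds there.

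For Tcf21 P30 against Tcf21 P7, 12 of 31 members were called higher and 4 lower with the covariate, where 21.5% and 20.8% of all genes were. The covariate was built from members, so these counts are not read as a result about the set. Cldn5 differed by -1.89 without the rich libraries and by -1.27 with the covariate. With all 7 libraries and no covariate edgeR called no member, and Cldn5 differed by -0.25 (adjusted p = 0.877). Aplnr (-1.14 and -0.60), Rasip1 (-1.26 and -0.64) and Erg (-1.26 and -0.67) were the other genes called lower with the covariate. Clec14a (0.75 and 1.08), Cd36 (0.60 and 1.08), Eng (0.31 and 0.45), Kdr (0.23 and 0.81) and Flt1 (0.61 and 1.19) were among those called higher with it. Nos3 (-0.71 and -0.16), Tie1 (-0.73 and -0.14), Vwf, Plvap and Esm1 were not called with the covariate.

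For Postn P7 against Tcf21 P7, 2 of 31 members passed as higher and 4 as lower in both fits, where 8.99% and 8.43% of all genes did. Vwf differed by -2.04 without the rich libraries and by -1.38 with the covariate, and Plvap by -1.88 and -1.26. With all 7 libraries and no covariate edgeR called neither (Vwf -0.88, adjusted p = 0.602, Plvap -1.05, adjusted p = 0.211). Their calls thus rest on a covariate made from members after the data were seen. Cldn5 (-0.98 and -0.70), Rasip1 (-0.55 and -0.39) and Eng (-0.29 and -0.32) were the other genes called lower with it. Esm1 (1.45 and 1.57), Clec14a (0.49 and 0.57), Kdr (0.21 and 0.32), Ptprb (0.41 and 0.47) and Cd36 (0.32 and 0.45) were those called higher. The counts were 2 higher and 4 lower without the rich libraries, where 10.9% and 9.74% of all genes were called, and 5 higher and 5 lower with the covariate, where 11.8% and 11.9% were.

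For Postn P7 against Tcf21 P30, 3 of 31 members were called higher with the covariate (Aplnr, Cldn5 and Esm1), where 17% of all genes were. The 14 called lower included Tek, Eng, Plvap and Vwf, where 17.2% of all genes were. Vwf differed by -2.04 without the rich libraries and by -1.81 with the covariate, and Plvap by -2.02 and -1.55. With all 7 libraries and no covariate Vwf was not called (-1.90, adjusted p = 0.217, edgeR), nor were Plvap, Aplnr and Cldn5.

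**Figure D4:**
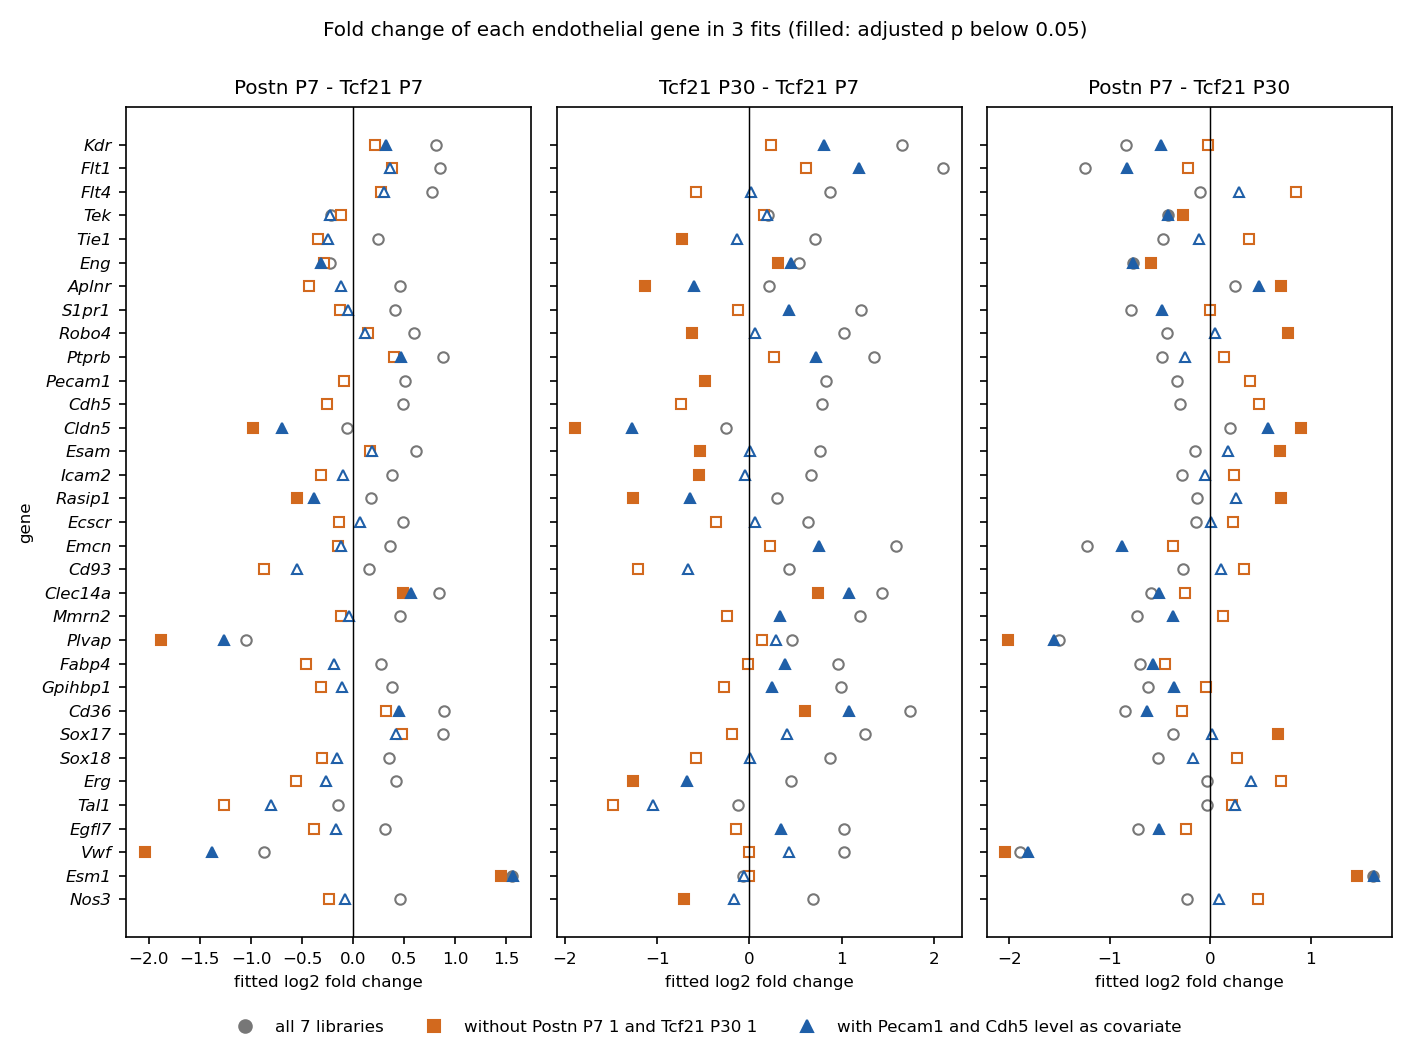
Fitted log2 fold change (horizontal) of each endothelial gene (rows) in the 3 comparisons (panels), from all 7 libraries (circles), without the 2 endothelial-rich libraries (squares) and with the Pecam1 and Cdh5 level as a covariate (triangles), with filled symbols where the adjusted p is below 0.05. With all 7 libraries Esm1, Tek and Eng are the filled circles, and the squares of the middle panel lie mostly to the left of the circles. The fill of the squares is not read as a result. Their libraries were chosen by member levels, and a single Postn P7 library remains.

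Levels of other marker lists were read in the same libraries. Both endothelial-rich libraries also held more transcripts of several other cell types. The 10 pericyte markers summed to 2319 and 1714 CPM in Postn P7, to 1190 and 1121 CPM in Tcf21 P7, and to 1698, 978 and 1023 CPM in Tcf21 P30. The 6 smooth muscle markers summed to 745 and 566, to 516 and 548, and to 837, 236 and 266 CPM. Cardiomyocyte markers (10 genes) were at 1580 and 679, at 1306 and 1159, and at 1392, 740.0 and 774 CPM, and red cell and platelet markers (10 genes) at 376 and 84.1, at 547 and 530.2, and at 613, 194 and 304 CPM. Macrophage markers (16 genes) followed another order, at 419 and 568, at 1401 and 1390, and at 728, 490 and 502 CPM. The fibroblast markers were lower in the endothelial-rich library than in the others of its group, by factors of 0.815 in Postn P7 and 0.835 in Tcf21 P30. The 6 mesothelial markers were at 64.7 and 6.41, at 24.8 and 20.5, and at 17.9, 1.97 and 1.92 CPM. The part of any of these in the differences above was not tested.

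**Figure D5:**
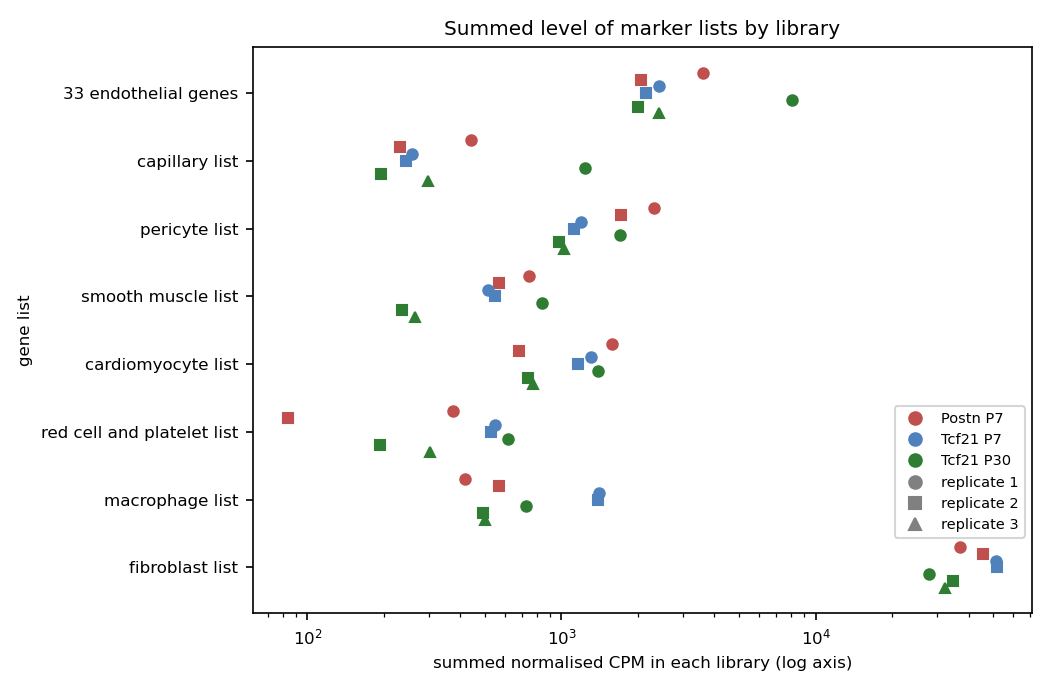
Summed normalised CPM of 8 gene lists (rows) in each library (points on a log axis, coloured by group and shaped by replicate). In the row of the 33 endothelial genes the circle of Tcf21 P30 replicate 1 lies at 8100.5 CPM, and in the fibroblast row the circles of Postn P7 and Tcf21 P30 lie below the other points of their group.

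Further endothelial genes that were not among the 33 were described by list. Of all genes tested, 6.52% were called higher and 5.49% lower in Postn P7 than in Tcf21 P7. At P30 against P7 the shares were 16.7% and 15%, and in Postn P7 against Tcf21 P30 11.7% and 12.5%. The lists are short, and none was tested against these shares. Of 20 other endothelial genes, 1 was lower in Postn P7 than in Tcf21 P7 (Acvrl1, a BMP receptor gene, -0.48 ± 0.08) and none higher, and 2 were higher at P30 than at P7 (Calcrl, 0.72 ± 0.17, and Tm4sf1, 0.76 ± 0.22). Of 12 endothelial transcription factor genes, Lmo2 (1.18 ± 0.15) and Klf4 (1.04 ± 0.13) were higher at P30 than at P7, and none was called between the lineages. Lmo2 was at 16.7 and 13.5 CPM in Postn P7, at 17.7 and 17 CPM in Tcf21 P7 and at 44.1, 38.9 and 35.1 CPM in Tcf21 P30. Tcf21 P30 replicate 1 thus did not stand far apart for Lmo2, unlike for most of the 33 genes. None of 10 capillary genes was called in any comparison, although the list summed to 1234 CPM in Tcf21 P30 replicate 1 and to between 196 and 440.3 CPM elsewhere. Of 10 arterial genes Jag1 was lower at P30 (-0.98 ± 0.27). Of 5 venous genes tested Nr2f2, a factor of venous identity, was higher in Postn P7 than in Tcf21 P7 (1.30 ± 0.13), at 55.6 and 62.1 against 24 and 23.7 CPM. Of 5 lymphatic genes tested none was called in either comparison with Tcf21 P7, and Ccl21a had no count in any library. Of 5 endocardial genes 3 were lower at P30 than at P7, among them Hapln1, a link protein of the matrix (-3.33 ± 0.40).

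The ligands for these receptors were measured in the same libraries. The shares of all genes called were again 6.52% higher and 5.49% lower between the P7 groups, and 16.7% and 15% at P30 against P7. Of 9 ligand and co-receptor genes, Angpt1, which encodes the activating ligand of Tek, was higher in Postn P7 than in Tcf21 P7 (0.56 ± 0.14) and Vegfb was lower (-0.42 ± 0.11). At P30, Angpt1 (0.98 ± 0.13) and Vegfa (0.50 ± 0.13) were higher than at P7 and Vegfb (-0.47 ± 0.10) was lower. Angpt1 was at 25.5 and 31.6 CPM in Postn P7, at 19.8 and 19 CPM in Tcf21 P7 and at 35.8, 41.8 and 37.5 CPM in Tcf21 P30. Its 3 groups did not overlap, and its lowest P30 library was the one with the most endothelial transcripts.

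Genes outside the 33 were also ranked by how their level followed the summed members over the 7 libraries. Of 10600 other genes with a mean of at least 10 CPM, the highest Pearson correlations of log2 CPM were those of Map4k2 (0.998), Cd38 (0.996), Tspan7 (0.994), Tspan13 (0.994), Myct1 (0.994), Tmem88 (0.994), Podxl (0.993), Adgrf5 (0.992), Wscd1 (0.992), Ccm2l (0.989), Kank3 (0.988), Abi3 (0.988), Arhgef15 (0.988), Gata2 (0.987) and Dab2ip (0.987). Adgrf5, an adhesion receptor of endothelium, was at 170 and 72.3, at 73.8 and 72.4, and at 549, 59 and 96.7 CPM. These correlations describe 7 points of which 1 lies far from the rest, and all share the libraries of the members, so no p is given. Of the members themselves, S1pr1 (0.999), Egfl7 (0.997) and Mmrn2 (0.994) followed the sum most closely, and Plvap (0.54), Tek (0.30) and Esm1 (-0.10) least.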

How the data were processed

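The authors deposited raw read counts in a single table, 1 row for each gene symbol and 1 column for each of the 7 libraries, without normalization. Per the submitters' processing notes, STAR and GRCm38 were used. Strandedness, gene annotation, counter and STAR release are not given in the sources used here, which limits what overlapping genes show. Tests were run with edgeR 4.0.16 under R 4.3.3. After filterByExpr 17636 genes remained. Libraries were scaled by TMM, all 7 were fitted with a mean per group, and contrasts were tested by the robust quasi-likelihood F-test with Benjamini-Hochberg adjustment over all genes tested. A gene is called where the adjusted p is below 0.05. Standard errors are the absolute log2 difference over the square root of F. DESeq2 1.42.0 and limma 3.58.1 (voom) were alternatives. The code was tested on simulated data. Gene positions and exon lengths come from GENCODE M21. Correlations used log2(CPM + 0.5).

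The members, the lists and the tests were chosen with earlier results of these data known. Each member is named. Those called, and the 10 with the most counts, are given in every library, up to 4 called genes are named per list, and Cldn5, Rasip1, Plvap, Clec14a, Erg and Vwf are given in full after their values were seen. Replicate numbers were not used as pairs, since no label ties equal numbers to 1 animal or day. Replicates differed by more than counting noise in every group.

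Alternatives were other scalings (size factors as in DESeq2, upper quartile, library size alone), no filter on low counts, no robust estimation, a replicate block, leaving out each library, leaving out both endothelial-rich libraries and, added after the data were seen, the covariate. No column of the table was left unmapped.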

Additional observations from a re-analysis of the deposited data

How the results depend on the processing

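With size factors as in DESeq2, upper quartile factors or limma-voom, the member counts matched those of the fit on all 7 libraries. Without a filter on low counts, 16 members were higher and 2 lower in Postn P7 than in Tcf21 P7 (6.37% and 4.01% of all 33172 genes), 25 were higher and 0 lower at P30 than at P7 (11% and 9.03%), and 1 was higher and 17 lower in Postn P7 than in Tcf21 P30 (7.87% and 7.26%). In that fit the estimated prior degrees of freedom were infinite, against 4.02 with the filter, so a gene's own spread between libraries did not enter. With library size alone, 1 member was lower in Postn P7 than in Tcf21 P30 in place of 2, and the median of all genes moved to 0.12 in Postn P7 against Tcf21 P7.

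Leaving out 1 library at a time, the members higher in Postn P7 than in Tcf21 P7 numbered from 0 to 3 and those lower 0, while the share of all genes called higher ran from 0.43% (without Tcf21 P7 replicate 2) to 10.4% (without Tcf21 P30 replicate 1). The 3 were Esm1, Clec14a (0.86) and Sox17 (0.89), without Tcf21 P30 replicate 1. The other comparisons are given for the fits without a P30 library, which leave no group with a single library. At P30 against P7, from 0 to 2 members were higher and from 0 to 1 lower. The shares of all genes were 12.2% to 17.9% and 10.5% to 16.9%. In Postn P7 against Tcf21 P30 from 1 to 7 were higher and 2 lower. There 8.61% to 15.3% and 8.29% to 13.9% of all genes were called. Without Tcf21 P30 replicate 1 the sign turned in the last comparison for Flt4 (1.36), Robo4 (1.23), Esam (1.16), Rasip1 (1.45) and Sox17 (1.08), all called there. Their lowest values came without Postn P7 replicate 1: Flt4 -0.59, Robo4 -0.88, Rasip1 -0.85 and Sox17 -0.77. Tcf21 P30 replicate 1 gave 47 sign changes among 99 fitted member values when left out, and Postn P7 replicate 1 gave 19. The limma-voom fit changed 20 signs and DESeq2 0.

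Without both endothelial-rich libraries, which were chosen for their member levels, 2 members were higher and 4 lower in Postn P7 than in Tcf21 P7, 3 higher and 10 lower at P30 than at P7, and 7 higher and 4 lower in Postn P7 than in Tcf21 P30. Values with the opposite sign included Rasip1 (-0.55) in the first comparison. In the second they included Tie1 (-0.73), Aplnr (-1.14), Robo4 (-0.63), Pecam1 (-0.48), Esam (-0.53), Icam2 (-0.55), Rasip1 (-1.26), Erg (-1.26) and Nos3 (-0.71). In the third they included Robo4 (0.77), Esam (0.70), Rasip1 (0.71) and Sox17 (0.68). With the covariate, chosen after seeing the data, the counts were 5 higher and 5 lower, 12 higher and 4 lower, and 3 higher and 14 lower. The shares of all genes called were 11.8% and 11.9%, 21.5% and 20.8%, and 17% and 17.2% in the same order. Among the genes called with the covariate, the sign turned for Rasip1 in the first comparison (-0.39) and for Aplnr (-0.60), Rasip1 (-0.64) and Erg (-0.67) in the second.

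With the replicate number as a block, 1 member was called higher at P30 than at P7 (Eng, 0.61, adjusted p = 0.0256) and 3 were lower in Postn P7 than in Tcf21 P30, with Plvap (-1.67, adjusted p = 0.0395) added, where 13.4% and 9.85% of all genes were called. Same-numbered libraries correlated at between 0.0450 and 0.373 in their deviations from the group means, and the samples share only a number. With 2 or 3 libraries a group, 1 of which stood apart in each of 2 groups, even large differences could not be called, such as Flt1 at P30 against P7 (2.10 ± 1.06, adjusted p = 0.196). The cause of the library differences was not tested.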
